A study of Mus musculus with 10 samples.

Results

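Amacrine cells are the inhibitory interneurons of the inner retina. Most of them release GABA, made by the glutamate decarboxylases Gad1 and Gad2, or glycine, which the transporter Slc6a9 (GlyT1) takes up, and both transmitters are loaded into vesicles by Slc32a1 (VGAT). Starburst amacrine cells also make acetylcholine with Chat. Pax6, Tfap2a, Tfap2b and Meis2 are transcription factors used to mark amacrine cells, although Pax6 and Meis2 are also made in other retinal cells. H3K18La, lactate attached to lysine 18 of histone H3, and H3K27Ac, acetate attached to lysine 27, are both found at active promoters and enhancers.

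These 9 genes were taken from the peak table by gene symbol, with promoter and other peaks alike. Of 108253 peaks carrying 25400 symbols, 46 peaks belonged to 8 of the 9 genes, of which 9 were promoter peaks and 37 lay elsewhere. Meis2 held 21 peaks, Slc6a9 13, Pax6 and Tfap2b 3 each, Gad1 and Chat 2 each, and Gad2 and Slc32a1 1 each. Tfap2a held none. The number of peaks in the table equals that of the H3K18La consensus set the study merged over retinas of several ages. Read this way, the H3K27Ac values are taken over regions found with the other mark, and holding a peak does not show which cells the explants contained.

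The libraries came from retina explants of wild-type C57Bl/6J mice aged P28, kept for 48 hours in Neurobasal-A medium with B27 and N2 supplements and either 5 mM or 25 mM glucose. CUT&Tag, in which an antibody brings a transposase to the marked chromatin, was run on 500000 dissociated cells per assay. H3K18La was profiled in 3 libraries per glucose level and H3K27Ac in 2. The comparison addresses how glucose availability bears on both marks. The study's methods speak of biological replicates where they define consensus peaks, and the labels number the replicates without saying how many animals gave each library. The p-values rest on the spread between these libraries, where each peak's or gene's own spread is moderated towards a trend over all of them. For H3K27Ac, with 2 libraries per group, they rest mostly on that trend. All carried 1 batch label.

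The cells were whole retina, not sorted amacrine cells. Fewer cells of a type and less mark per cell therefore cannot be told apart. Signal was present at loci of other retinal types, and rod marker loci averaged 1.62 RPKM per gene for H3K18La at 5 mM against 0.762 for the amacrine genes. RPKM is the number of reads in a peak scaled to its length in kilobases and to the library size. The value of a gene, called its locus level here, is the reads over all its peaks divided by their summed length.

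Depth differed between libraries, from 1358008 to 5182766 reads for H3K18La and from 4324289 to 7424470 for H3K27Ac. The share of those reads inside peaks moved with glucose, with 11.9% ± 0.097 (SD, n = 3) at 5 mM and 32.6% ± 2.08 at 25 mM for H3K18La, and 26.3% ± 7.35 (n = 2) and 63.0% ± 9.19 for H3K27Ac. All fold changes below carry this difference. The median log2 fold change over all genes was 0.69 for H3K18La and 0.70 for H3K27Ac, and was -0.20 and -0.24 with reads in peaks as the library size.

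The sequences that follow are the central 250 bases of 5 peaks whose change the results turn on, read from GRCm38.p6 on the plus strand, none of them overlapping an annotated exon. Capitals mark any match, on either strand, to GGGCGG (the box of SP and KLF factors), GCCNNNGGC (AP-2, the family of Tfap2a and Tfap2b), TAATCC (OTX and CRX factors) or CAGCTG (an E-box). Slc6a9 peaks 1 and 2, shown because they had the highest mean RPKM of the 46 over the 10 libraries, lie upstream of Slc6a9. Meis2 peaks 8 and 19 lie in Meis2 introns and are the non-promoter Meis2 peaks that passed the test in 1 mark each, and Tfap2b peak 1 had the lowest H3K27Ac change. Peaks of a gene are numbered by position along the chromosome.
Slc6a9 peak 1, chr4:117830441-117830690: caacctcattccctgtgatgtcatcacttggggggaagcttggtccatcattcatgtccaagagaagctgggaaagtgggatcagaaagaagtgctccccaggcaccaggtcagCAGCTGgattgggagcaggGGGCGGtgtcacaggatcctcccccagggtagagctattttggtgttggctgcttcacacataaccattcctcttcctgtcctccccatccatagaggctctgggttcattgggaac
Slc6a9 peak 2, chr4:117831976-117832225: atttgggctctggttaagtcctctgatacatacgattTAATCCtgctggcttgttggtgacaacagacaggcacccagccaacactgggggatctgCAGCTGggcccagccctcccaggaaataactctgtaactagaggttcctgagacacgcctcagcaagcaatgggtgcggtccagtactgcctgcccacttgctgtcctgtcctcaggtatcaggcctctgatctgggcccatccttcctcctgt
Meis2 peak 8, chr2:115874223-115874472: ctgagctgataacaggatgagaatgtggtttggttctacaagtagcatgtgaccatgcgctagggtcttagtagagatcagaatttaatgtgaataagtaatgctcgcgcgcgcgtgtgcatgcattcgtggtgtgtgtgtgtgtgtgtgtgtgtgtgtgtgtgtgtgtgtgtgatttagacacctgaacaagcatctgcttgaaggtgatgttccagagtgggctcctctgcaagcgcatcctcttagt
Meis2 peak 19, chr2:116042968-116043217: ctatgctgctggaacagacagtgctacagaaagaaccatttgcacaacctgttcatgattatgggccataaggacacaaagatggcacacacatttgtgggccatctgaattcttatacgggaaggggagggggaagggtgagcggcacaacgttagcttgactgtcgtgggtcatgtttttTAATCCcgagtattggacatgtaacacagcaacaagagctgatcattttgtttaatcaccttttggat
Tfap2b peak 1, chr1:19182959-19183208: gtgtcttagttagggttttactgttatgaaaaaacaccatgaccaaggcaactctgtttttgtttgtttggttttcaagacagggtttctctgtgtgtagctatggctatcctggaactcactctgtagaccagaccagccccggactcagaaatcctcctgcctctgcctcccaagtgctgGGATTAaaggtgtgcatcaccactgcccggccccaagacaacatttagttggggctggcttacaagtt

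A TAATCC match was held by 5 of the 46 member peaks, 10.9%, against 9.66% of the central 250 bases of all 108253 peaks. GGGCGG was held by 7 of 46 against 10.3% of all peaks, GCCNNNGGC by 4 of 46 against 10.1%, and CAGCTG by 6 of 46 against 17.5%. The whole of the Tfap2b peak 1 sequence is soft-masked as repeat in the assembly, its TAATCC match included, and reads there may not map uniquely. By the same mask, 3 of the 46 centres were repeat over at least 50% of their length.

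Slc6a9 carried most of the signal. Its locus level for H3K18La was 2.21, 1.90 and 1.91 RPKM in the 3 libraries at 5 mM and 7.76, 6.46 and 5.87 in those at 25 mM. All 3 high-glucose libraries lay above all 3 low-glucose ones, with means of 2.01 ± 0.18 and 6.70 ± 0.97 (SD, n = 3 each). For H3K27Ac the level was 4.74 and 6.69 RPKM at 5 mM and 19.2 and 14.5 at 25 mM, again without overlap. Over all loci, 46.6% had every 25 mM library above every 5 mM one for H3K18La and 65.6% for H3K27Ac. Slc6a9 stood above the 7 other genes in every group, and its libraries overlapped those of the next gene in none. It ranked between the 88.2 and 94.9 percentile of all 25400 loci in every library.

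The Slc6a9 locus rose in both marks. The log2 fold change was 1.52 (SE 0.15, limma adjusted p = 0.00058) for H3K18La and 1.48 (SE 0.45, adjusted p = 0.00549) for H3K27Ac, at the 89.6 and 86.9 percentile of the changes of all loci. Slc6a9 was also the only member whose locus change stayed above 0 after scaling to reads in peaks, where it no longer passed the test. Leaving out any H3K18La library kept its call, with adjusted p between 0.0019 and 0.0059, whereas leaving out any of the 4 H3K27Ac libraries ended the H3K27Ac call, with adjusted p from 0.059 to 0.25.

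Meis2, a homeodomain factor found in GABAergic amacrine cells, was the second locus to rise. Its H3K18La level was 0.735, 0.863 and 0.615 RPKM at 5 mM and 1.70, 1.61 and 1.77 at 25 mM, and its H3K27Ac level was 1.38 and 1.97 against 4.14 and 3.11. Neither pair of groups overlapped, as at 46.6% of all loci for H3K18La and 65.6% for H3K27Ac with 25 mM higher. The log2 fold change was 0.83 (SE 0.22, adjusted p = 0.0266) for H3K18La and 0.93 (SE 0.34, adjusted p = 0.0179) for H3K27Ac. These lie close to the median of all loci, at the 58.3 and 60.8 percentile, and the sign of both turned after scaling to reads in peaks. The H3K18La call held in 1 of the 6 fits that left out a library and the H3K27Ac call in 0 of 4.

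In each mark 2 of the 8 loci passed the test. Over all loci 31.1% passed for H3K18La and 44.4% for H3K27Ac, and with 8 members a count of 2 near these shares is no result about the members. Their median log2 fold change was 0.28 for H3K18La, against 0.69 over all loci, and 0.52 for H3K27Ac, against 0.70. With reads in peaks as the library size that gap all but closed, to -0.21 against -0.20 and -0.27 against -0.24. With the plain form of limma's variance moderation, in place of the robust one used here, 0 of 25400 loci passed for H3K27Ac at an adjusted p of 0.05 and 11638 at an unadjusted one, so the H3K27Ac calls at loci, and those at single peaks, rest on the robust form. The promoter calls do not, since plain moderation called 8371 of 14562 promoters and 3 of 5 members.

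**Figure D1:**
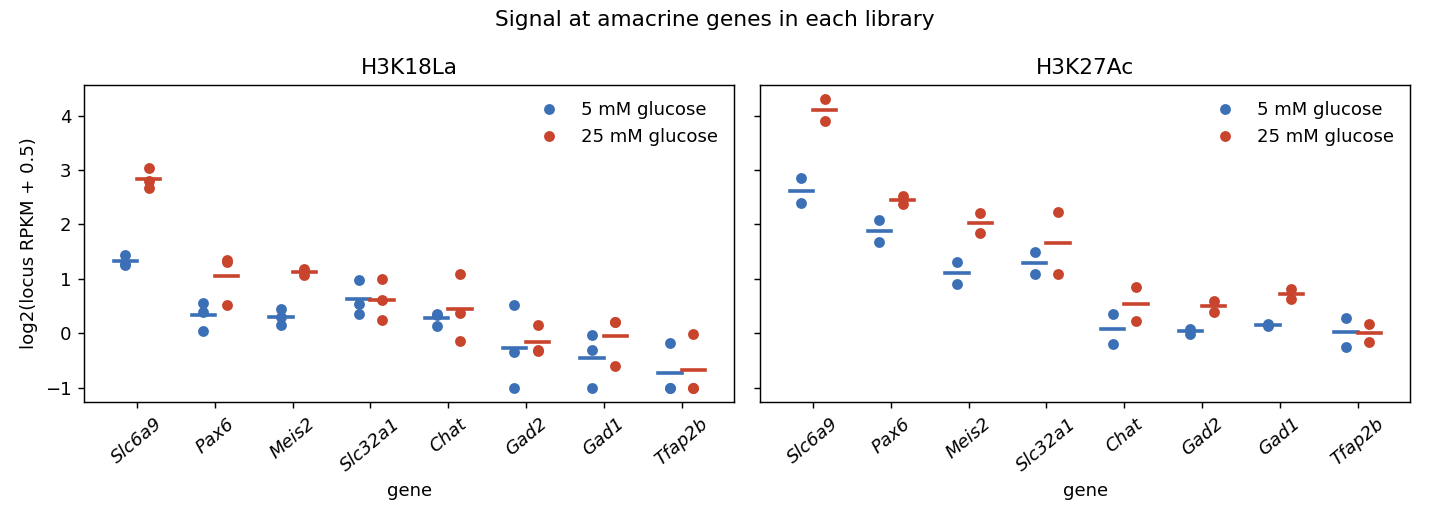
Locus level of the 8 genes with a peak, as log2(RPKM + 0.5), in each library (points) with the group mean of these log values (horizontal lines), at 5 mM (blue) and 25 mM (red) glucose, for H3K18La on the left and H3K27Ac on the right. Slc6a9 and Meis2 are separated by glucose in both marks, whereas the points of Slc32a1, Chat and Tfap2b overlap in both. Over all loci, every 25 mM library lay above every 5 mM one at 46.6% for H3K18La and 65.6% for H3K27Ac.

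Pax6, a transcription factor used to mark amacrine cells, held no promoter peak in the deposited annotation. Its H3K18La locus level was 0.526, 0.964 and 0.818 RPKM at 5 mM and 1.98, 2.05 and 0.936 at 25 mM, the last of which lay below 1 low-glucose library. The H3K27Ac level was 2.70 and 3.75 against 5.25 and 4.71, without overlap, as at 65.6% of all loci. The changes were 0.73 (SE 0.31, adjusted p = 0.12) and 0.57 (SE 0.38, adjusted p = 0.21) on the log2 scale. Without the third 25 mM library the H3K18La change was 1.00 with an adjusted p of 0.0483.

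For the genes of GABA synthesis and release the reads were few. Gad1 held between 0 and 3 reads per H3K18La library over its 2 peaks, and Gad2 between 0 and 8 over 1 peak. Gad2 H3K18La was 0.288, 0.938 and 0 RPKM at 5 mM and 0.309, 0.299 and 0.615 at 25 mM, a change of 0.12 (SE 0.47, adjusted p = 0.88), and the library at 0 allows up to 1.34 RPKM (3 reads). Gad1 H3K18La was 0.308, 0 and 0.478 RPKM at 5 mM and 0.661, 0.160 and 0.657 at 25 mM, a change of 0.39 (SE 0.43, adjusted p = 0.52). The groups of both genes overlapped in this mark. For H3K27Ac, Gad1 was 0.601 and 0.628 RPKM against 1.26 and 1.05, and Gad2 was 0.562 and 0.489 against 1.01 and 0.819. Both were higher in each 25 mM library, as were 65.6% of all loci. Their changes of 0.57 (SE 0.33, adjusted p = 0.15) and 0.46 (SE 0.35, adjusted p = 0.28) did not pass. The vesicular transporter Slc32a1, with 1 to 3 reads per H3K18La library, was 0.954, 0.776 and 1.48 RPKM at 5 mM and 1.02, 1.48 and 0.678 at 25 mM. For H3K27Ac it was 2.33 and 1.62 against 4.20 and 1.63, again with overlap. Its changes were -0.02 (SE 0.30, adjusted p = 0.98) for H3K18La and 0.37 (SE 0.33, adjusted p = 0.38) for H3K27Ac.

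Chat H3K18La was 0.766, 0.779 and 0.595 RPKM at 5 mM and 0.411, 0.795 and 1.63 at 25 mM, so that the high-glucose libraries lay on both sides of the low-glucose ones. For H3K27Ac it was 0.374 and 0.780 against 0.674 and 1.31. The changes were 0.17 (SE 0.37, adjusted p = 0.76) and 0.46 (SE 0.34, adjusted p = 0.28). Tfap2b was the lowest locus of the 8 for H3K18La at both glucose levels, with reads in 1 library of each group (0.382 RPKM at 5 mM, 0.486 at 25 mM) and no read in the others. Its H3K27Ac level was 0.343 and 0.716 against 0.618 and 0.399, a change of -0.01 (SE 0.38, adjusted p = 0.99). No detectable size of change was computed for these loci. Slc6a9 and Meis2 together held between 88.1 and 95.6% of the members' reads in every library, and the 6 other genes between 5 and 29 reads in all per H3K18La library.

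The order of the loci differed somewhat between groups. Below Slc6a9, every gene overlapped its neighbour in the order for H3K18La at both glucose levels. For H3K27Ac, Pax6 stood second at both levels, at 3.23 ± 0.75 and 4.98 ± 0.38 RPKM (SD, n = 2), and did not overlap the third gene. The glucose change did not differ detectably between the marks for any member. In the fit of all 10 libraries with a glucose by mark term, the difference in log2 fold change (H3K27Ac minus H3K18La) ranged from -0.16 (SE 0.44) for Pax6 to 0.38 (SE 0.54) for Slc32a1, with none of the 8 members at an unadjusted p under 0.05. Of all loci, 0% passed in that fit and 1580 had an unadjusted p under 0.05, so the test called nothing anywhere.

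Promoter peaks and other peaks of a gene were then fitted apart. The authors counted a peak as promoter between -1000 and 500 bases from a transcript start. For the promoter peaks, 2 of 5 members passed in each mark, against 26.3% of 14562 genes for H3K18La and 58% for H3K27Ac. Meis2 promoter peaks rose by a log2 fold change of 1.47 in both marks (SE 0.33, adjusted p = 0.0074 for H3K18La and SE 0.49, adjusted p = 0.0084 for H3K27Ac). In RPKM this was 1.42, 1.24 and 0.946 against 4.58, 4.21 and 3.75 for H3K18La. The Slc6a9 promoter peaks rose by 1.23 (SE 0.33, adjusted p = 0.0162) and 1.46 (SE 0.49, adjusted p = 0.0092), and went from 5.19 and 6.21 RPKM to 21.5 and 12.7 for H3K27Ac. The Gad1 promoter change for H3K27Ac was 1.05 (SE 0.48, adjusted p = 0.0529), from 1 and 2 reads at 5 mM to 8 and 7 at 25 mM. The H3K27Ac promoter calls of both genes held in 2 of the 4 fits that left out a library.

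Among the other peaks, 1 of 6 members passed for H3K18La, against 30.3% of 19849 genes. This was Slc6a9, whose H3K18La went from 2.31, 1.88 and 2.22 RPKM to 8.63, 7.51 and 7.05 and rose by 1.64 on the log2 scale (SE 0.13, adjusted p = 0.000299) at the 93.2 percentile of all genes. For H3K27Ac 0 of 6 passed, against 0.00504% of genes, and 1 member had an unadjusted p under 0.05, as did 7045 of the 19849 genes. It too was Slc6a9, at 1.49 (SE 0.39, adjusted p = 0.0554) and the 94.8 percentile. The other peaks of Meis2 had log2 fold changes of 0.63 (SE 0.23, adjusted p = 0.083) and 0.57 (SE 0.31, adjusted p = 0.21), below its promoter values in both marks. The same order held over all genes, with medians of 0.87 at promoters and 0.62 elsewhere for H3K18La and 1.15 and 0.46 for H3K27Ac, and the difference at Meis2 was not tested.

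**Figure D2:**
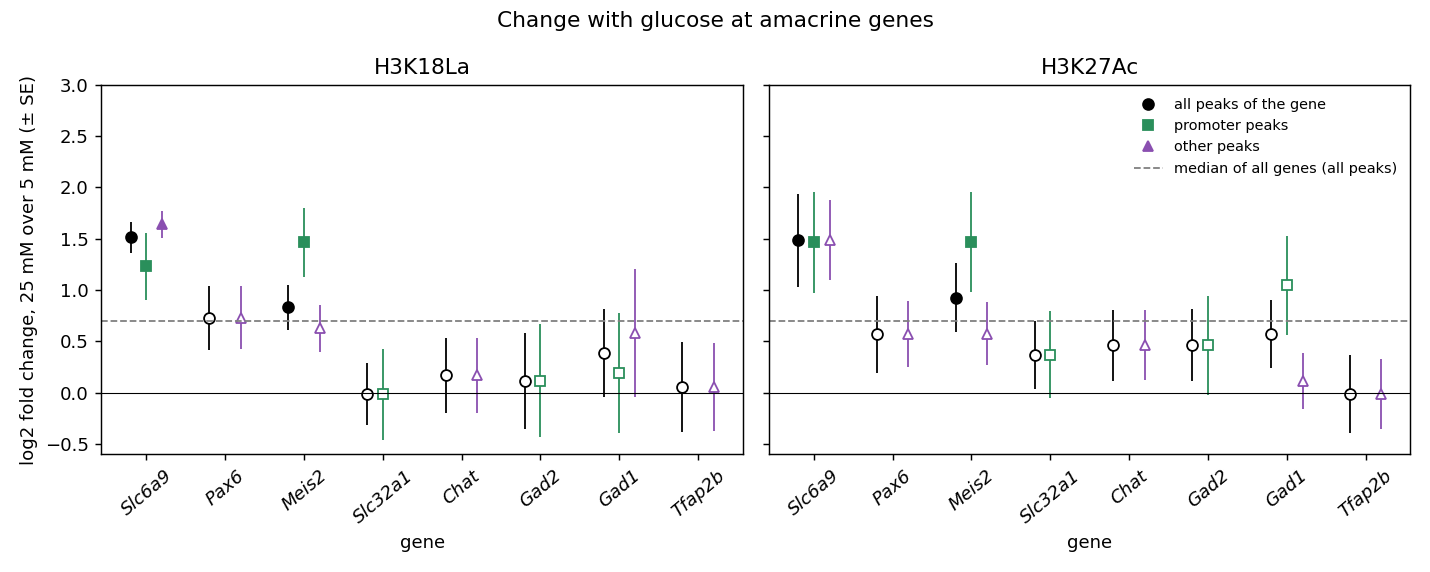
Log2 fold change of 25 mM over 5 mM glucose (± SE, limma) for all peaks of each gene (circles), its promoter peaks (squares) and its other peaks (triangles), filled where the adjusted p was under 0.05, with the median over all loci as a dashed line (0.69 for H3K18La, 0.70 for H3K27Ac). Slc6a9 lies above the dashed line in both marks and all 3 classes, and Slc32a1, Chat, Gad2 and Tfap2b lie below it in both.

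At single peaks, 9 of the 46 passed for H3K18La, against 20.8% of all peaks, and 11 for H3K27Ac, against 16.6%. All of them rose and all belonged to Slc6a9 (6 and 8 peaks) or Meis2 (3 and 3). No H3K27Ac peak call held when any of its 4 libraries was left out. Both marks called 8 of these peaks, H3K18La alone called 1 and H3K27Ac alone 3. Of all 46 peaks, 16 had every 25 mM library above every 5 mM one for H3K18La, against 36.6% of all peaks, and 29 for H3K27Ac, against 53%. For Slc6a9 these were 9 and 13 of its 13 peaks, and for Meis2 6 and 12 of 21.

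Slc6a9 peak 2 (chr4:117831841-117832359, intergenic, 519 bases), with the highest mean of the 46 peaks, had the smallest p for H3K18La. It measured 1.83, 4.46 and 2.84 RPKM at 5 mM and 24.5, 20.9 and 18.2 at 25 mM, and rose by 2.67 on the log2 scale (SE 0.30, adjusted p = 0.000182). For H3K27Ac it measured 8.47 and 15.5 against 40.7 and 34.5, a change of 1.66 (SE 0.48, adjusted p = 0.0264). It lies 2899 bases before the RefSeq start of Slc6a9, and the next protein-coding gene, Ccdc24, is 36896 bases away.

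Slc6a9 peak 1 (chr4:117829304-117831827, intergenic, 2524 bases) adjoins it. It rose from 4.51, 2.29 and 3.50 RPKM to 15.9, 13.8 and 12.6 for H3K18La, a log2 fold change of 1.93 (SE 0.29, adjusted p = 0.000548). For H3K27Ac it had the smallest p of the 46 and rose from 5.68 and 9.44 to 27.9 and 23.8, by 1.74 (SE 0.46, adjusted p = 0.02). Both upstream peaks kept their H3K18La call whichever library was left out.

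Slc6a9 peak 3 (chr4:117834940-117836933) covers the first RefSeq start of the gene. By mean over the 10 libraries it was the strongest promoter peak of Slc6a9, though not for H3K18La at 5 mM. It went from 2.62, 2.32 and 0.739 RPKM to 9.70, 7.03 and 5.75 for H3K18La, a change of 1.82 (SE 0.41, adjusted p = 0.00612), and from 6.38 and 8.48 to 37.8 and 17.4 for H3K27Ac, a change of 1.73 (SE 0.48, adjusted p = 0.0228). The 2 libraries at 25 mM thus differed more from each other than those at 5 mM did. The 250 bases before this start hold GGGCGG at 2 places, within a stretch 68 to 39 bases before it (chr4:117835190-117835219, plus strand, RefSeq), shown with the matches in capitals.
Slc6a9 promoter: gggaccaGGGCGGgggaGGGCGGccagggg

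GGGCGG was present in this window in 32.7% of all 32851 RefSeq promoters. None of the 250-base windows before the Meis2, Gad2 or Slc32a1 starts, each covered at its start by a peak, held it, nor did the windows before the other Slc6a9 starts, whereas the windows before the Gad1 start and both Tfap2a starts held 1 match each. GCCNNNGGC had 2 matches before the Gad2 start, a motif found in 13.7% of promoters. The window of Slc6a9 had a GC content of 60.4% and that of Gad2 64%, against a median of 52.4% over all promoters, and the Meis2 window had 47.6%.

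The remaining Slc6a9 peaks run through the gene, apart from peak 13, which lies past its end. Peak 12 (chr4:117862770-117863614, 3' UTR) rose for H3K18La from 1.12, 2.51 and 2.61 RPKM to 6.62, 5.82 and 6.38, by 1.45 (SE 0.36, adjusted p = 0.0115). Peak 10 (chr4:117855566-117856241, 5' UTR) rose for H3K27Ac from 2.74 and 3.33 to 8.43 and 9.17, by 1.40 (SE 0.41, adjusted p = 0.0276). Peak 13 (chr4:117873800-117874303, promoter) rose by 2.34 (SE 0.60, adjusted p = 0.0141) for H3K18La, from 0, 0.766 and 0 RPKM to 4.04, 4.39 and 1.34. Counting 3 reads as the most that 0 reads allow, the libraries at 0 could hold up to 2.82 and 4.38 RPKM at this peak, for counting error alone. It carries the Slc6a9 symbol through the start of a retained-intron transcript and lies inside the neighbouring gene B4galt2. Without it, a choice made after seeing the data, the Slc6a9 locus means were 2.07 and 6.83 RPKM for H3K18La and 5.68 and 16.7 for H3K27Ac.

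**Figure D3:**
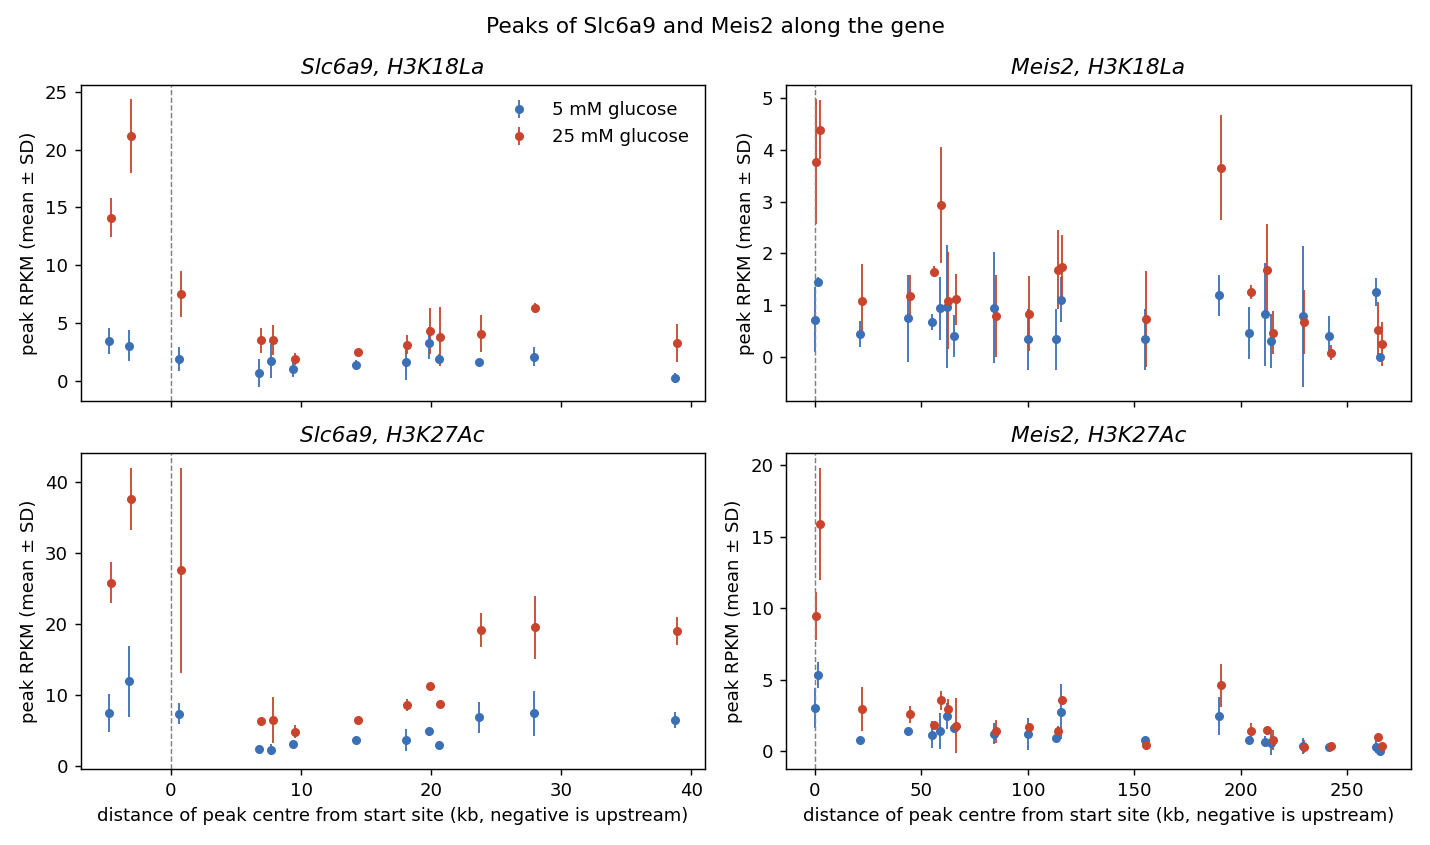
Mean RPKM (± SD; n = 3 libraries per group for H3K18La, top, and 2 for H3K27Ac, bottom) of each Slc6a9 peak (left) and Meis2 peak (right) at 5 mM (blue) and 25 mM (red) glucose, against the distance of the peak's centre from the RefSeq start site in kb, with small sideways shifts so that points do not cover each other. At 25 mM the highest Slc6a9 peaks in both marks are the pair just upstream of the start and the one at it, and the highest Meis2 peaks are the 2 at the start, an order that at 5 mM holds for Meis2 in H3K27Ac but neither for Meis2 in H3K18La nor for Slc6a9.

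Meis2 peak 21 (chr2:116063994-116064789) covers the RefSeq start taken for Meis2. For H3K18La it rose from 1.19, 0.970 and 0 RPKM to 3.83, 4.94 and 2.54, by 1.95 (SE 0.54, adjusted p = 0.0206). The library at 0 allows up to 2.78 RPKM (3 reads), above the lowest 25 mM value. For H3K27Ac this peak rose from 2.03 and 4.05 to 10.7 and 8.29, by 1.54 (SE 0.43, adjusted p = 0.0235). Meis2 peak 20 (chr2:116062013-116063551), annotated to the start of a processed transcript, was the stronger promoter peak and went from 1.54, 1.38 and 1.44 to 4.96, 3.84 and 4.38 for H3K18La, a change of 1.32 (SE 0.37, adjusted p = 0.0207), and from 6.01 and 4.71 to 18.7 and 13.1 for H3K27Ac, a change of 1.47 (SE 0.44, adjusted p = 0.0288). Each of these H3K18La calls held in 3 of the 6 fits that left out a library, and that of Slc6a9 peak 13 in 4.

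Meis2 peak 8 (chr2:115874043-115874652, intron) lies 191187 bases from the annotated start. By mean over the 10 libraries it was the strongest non-promoter Meis2 peak, though not in either mark at 5 mM. It rose for H3K18La from 0.777, 1.58 and 1.21 RPKM to 2.50, 4.03 and 4.42, by 1.29 (SE 0.43, adjusted p = 0.0452), a call that held in 1 of the 6 fits without a library. For H3K27Ac its log2 fold change was 0.83 (SE 0.43, adjusted p = 0.19). Meis2 peak 19 passed for H3K27Ac only, at 1.33 (SE 0.45, adjusted p = 0.0444), against 0.70 (SE 0.59, adjusted p = 0.45) for H3K18La. Whether the marks differ at these peaks was not tested. Meis2 also held the lowest H3K18La changes of the 46 peaks, at intergenic peak 2 (-0.91, SE 0.60, adjusted p = 0.32) and peak 3 (-0.57, SE 0.54, adjusted p = 0.50), neither of which passed.

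The third lowest H3K18La change was at Pax6 peak 1 (intron), at -0.40 (SE 0.64, adjusted p = 0.71). Pax6 peak 2 (chr2:105682934-105683259, exon), the strongest Pax6 peak by mean over the 10 libraries, lies 471 bases after the second RefSeq start. It measured 0, 2.37 and 2.26 RPKM at 5 mM and 1.56, 3.77 and 1.03 at 25 mM for H3K18La, and 5.67 and 4.45 against 4.69 and 5.78 for H3K27Ac, so the groups overlapped in both marks. Pax6 peak 3 (intron) was the one with the largest changes, 1.33 (SE 0.61, adjusted p = 0.15) for H3K18La and 0.98 (SE 0.42, adjusted p = 0.11) for H3K27Ac, with no overlap of groups in either.

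For H3K27Ac the lowest changes were at Tfap2b peak 1 (-0.60, SE 0.54, adjusted p = 0.48), Meis2 peak 9 (-0.48, SE 0.52, adjusted p = 0.57) and Tfap2b peak 2 (-0.24, SE 0.50, adjusted p = 0.78). Each was lower in both 25 mM libraries than in both 5 mM ones, and none passed. The share of all peaks lower in this way was not computed. Meis2 peak 9 held 2 and 3 reads at 5 mM against 3 and 1 at 25 mM. Tfap2b peak 2 held 2 and 4 against 3 and 3, so these orders rest on few reads. At Tfap2b peak 1 the order rests on 1 and 2 reads at 5 mM against 1 and 0 at 25 mM, under the floor of 3 reads, and this peak lies nearer to Tfap2d (8787 bases) than to Tfap2b (25477 bases). Tfap2b peak 3 (chr1:19230922-19231571, exon) was 0 and 0.743 RPKM against 1.07 and 0.622 for H3K27Ac. By mean over the 10 libraries it was the strongest Tfap2b peak, at 0.370 RPKM against 0.358 for peak 2. Peak 2 was the higher for H3K27Ac at 5 mM and for H3K18La at 25 mM. The other Gad1 peak, peak 2 (3' UTR), had log2 fold changes of 0.58 (SE 0.66, adjusted p = 0.59) for H3K18La and 0.11 (SE 0.46, adjusted p = 0.90) for H3K27Ac. Chat peak 2 (chr14:32428426-32429238, intron) had log2 fold changes of 0.41 (SE 0.58, adjusted p = 0.66) for H3K18La and 0.36 (SE 0.53, adjusted p = 0.68) for H3K27Ac. It was the stronger of the Chat pair by mean RPKM over the 10 libraries, but peak 1 was higher for H3K27Ac at both glucose levels.

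Across the 46 peaks the changes of the marks were related, with Pearson's r of 0.62 and Spearman's rho of 0.65 as a description. Peaks of one gene share libraries and neighbourhood and are not independent. Both changes were above 0 at 35 of the 46. Over all peaks, 82.0% of changes were above 0 for H3K18La and 78.1% for H3K27Ac. Neither the share above 0 in both nor r was computed for all peaks.

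**Figure D4:**
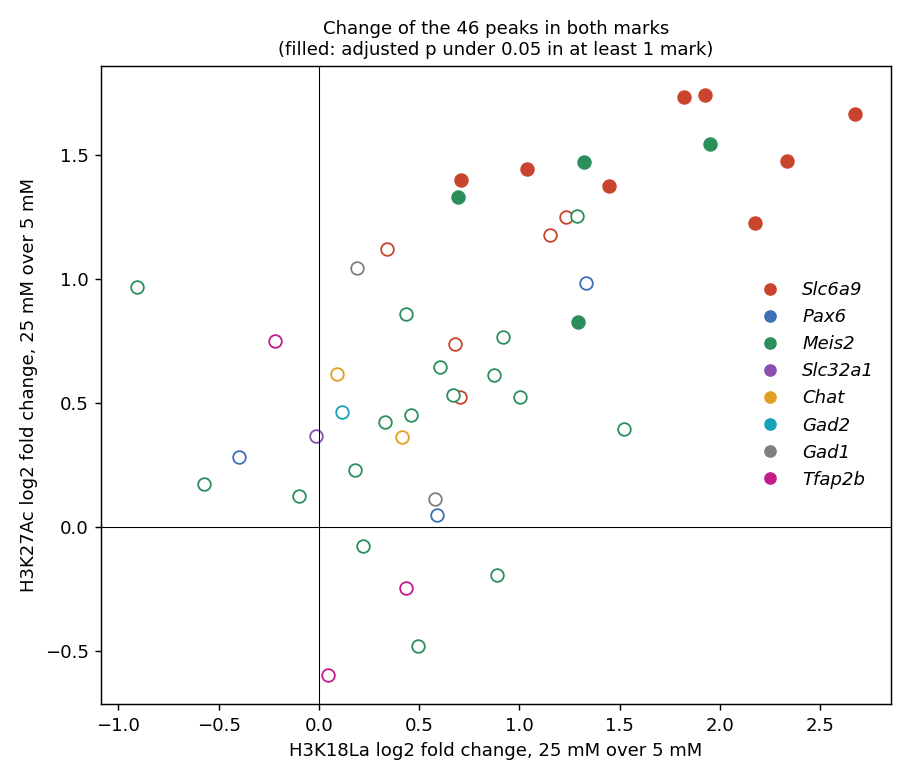
Log2 fold change (25 mM over 5 mM glucose) of each of the 46 peaks for H3K18La (x axis) and H3K27Ac (y axis), coloured by gene and filled where the adjusted p was under 0.05 in at least 1 mark. The filled points are Slc6a9 and Meis2 peaks in the upper right, and the lowest H3K27Ac change is Tfap2b peak 1, at -0.60.

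Several member starts had no peak of the gene over them. The nearest peak to the Chat start lies 6190 bases away, the nearest to the Tfap2b start 1160 bases away, and the Gad1 promoter peak (chr2:70566024-70566881), annotated to a processed transcript, lies 3895 bases after the RefSeq start of Gad1. Nearest to the first Pax6 start, at 7809 bases, is a peak assigned to its antisense neighbour Pax6os1, which measured 0.787 and 1.20 RPKM for H3K18La and 1.72 and 4.09 for H3K27Ac at 5 and 25 mM. Within the Tfap2a gene and 10000 bases on each side lie 2 peaks, assigned to Gm47061 and Gm47067. The Gm47061 promoter peak (chr13:40722651-40723548), inside Tfap2a, measured 0.749 and 2.01 RPKM for H3K18La and 3.08 and 4.35 for H3K27Ac. The absence of Tfap2a from the member peaks thus concerns the symbol, not the region. A peak assigned to Ccdc24 (chr4:117869009-117873571) overlaps the end of Slc6a9, and one assigned to G630016G05Rik (chr2:116066332-116067520) lies inside Meis2, which runs to 116067537. Both are likewise outside the member values. From 5 to 25 mM the first went from 2.04 to 9.47 RPKM for H3K18La and from 14.0 to 41.2 for H3K27Ac. The second went from 0.556 to 3.28 and from 4.39 to 11.2.

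A wider list of 36 genes of amacrine subtypes and inhibitory transmission held a peak for 31. For H3K18La 8 of the 31 loci rose and 0 fell, where 31.1% of all loci passed, and their median log2 fold change was 0.46. The smallest p-values were at Ebf3, a transcription factor (1.71, SE 0.11, adjusted p = 0.000351), Dab1, of the reelin pathway (1.02, SE 0.17, adjusted p = 0.00367) and Gbx2, a homeodomain factor (1.29, SE 0.23, adjusted p = 0.00551). For H3K27Ac 4 rose and 0 fell, where 44.4% of all loci passed, with a median of 0.31. These included Gjd2, which encodes the neuronal gap junction protein connexin 36 (1.75, SE 0.47, adjusted p = 0.0019), Ebf3 (1.15, SE 0.39, adjusted p = 0.0121) and the LIM homeodomain gene Isl1 (1.00, SE 0.35, adjusted p = 0.0152). Changes below 0 with the smallest p were at Barhl2 (-0.80, SE 0.70), Penk (-0.39, SE 0.40) and Neurod6 (-0.29, SE 0.37) for H3K18La and at Neurod6 (-0.58, SE 0.33), Barhl2 (-0.39, SE 0.44) and Slc17a8 (-0.14, SE 0.36) for H3K27Ac, and none of these passed. These medians stand beside 0.69 and 0.70 over all loci, under library scaling as deposited.

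Marker loci of other cell types moved beside the members. All 11 rod loci rose in both marks, their summed level going from 17.2 to 18.9 RPKM at 5 mM to 65.4 to 123 at 25 mM for H3K18La and from 61.7 to 106 to 272 to 410 for H3K27Ac. The summed level of the 8 amacrine genes went from 5.79 to 6.60 RPKM to 12.2 to 13.8, and from 13.0 to 16.6 to 27.5 to 36.3. In H3K18La and H3K27Ac the rod loci had median changes of 1.77 and 1.69 (log2), against 0.28 and 0.52 for the amacrine genes. Cone loci rose at 7 and 4 of 9, bipolar loci at 3 and 7 of 8, Muller glia loci at 3 and 3 of 8, horizontal loci at 1 and 3 of 6, ganglion loci at 1 and 1 of 8 and microglia loci at 3 and 1 of 5, for H3K18La and H3K27Ac, and none of these lists held a locus that fell. Over all loci 31.1% and 44.4% passed, so several of these counts are near what all loci show. The part of other cell types in the members' values was not tested.

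The loci whose profile over the 10 libraries was most like the mean of the standardised member profiles were Ccdc149, Ola1 and Baiap2, with Pearson's r of 0.991, 0.990 and 0.988 over 6220 genes with at least 5 peaks, where the median r was 0.67. The libraries share mark and glucose level, which enter every such r. Among the members, r with that mean ran from 0.25 for Chat to 0.97 for Meis2.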

How the data were processed

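CUT&Tag signal of 10 libraries was analysed. Per the study's methods, the authors processed reads with nf-core/cutandrun to GRCm38, called MACS peaks, kept those in at least 2 replicates, merged and annotated them (ChIPseeker 1.34.1, Ensembl) and quantified them with csaw. The peak number equals that of their H3K18La set merged over retinal ages, while for a principal component analysis of explants the methods name merged H3K18La and H3K27Ac peaks. The deposited values are RPKM, and 100% equalled whole reads within 0.02 reads. The authors' own differential binding results (fold changes, p-values, group means) were not used. The labels' protocol names an H3K9me3 antibody, while titles and methods name H3K27Ac, and titles were followed. The members and gene lists were chosen with earlier results of these data known, as was robust moderation. Named are all members, each gene's strongest promoter and other peak, and per mark the 5 peaks of smallest p and 3 of lowest change. Strongest means the highest mean RPKM over the 10 libraries of both marks. Each mark was fitted alone with limma 3.58.1 (R 4.3.3; trend, robust) on log2(RPKM + 0.5), which understates changes of low values, without a filter, and p-values were Benjamini-Hochberg adjusted over all peaks or genes (threshold 0.05). Only the peak fit was run on simulated data, with the same spread setting for all peaks, so its error rates on these libraries were not settled. Of the transcripts shared with GENCODE M21 (GRCm38), 99.7% had the same coordinates. Sequences are from RefSeq, GRCm38.p6. Intervals from counts were not computed; with so few reads per peak, counting error alone is large.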

Additional observations from a re-analysis of the deposited data

How the results depend on the processing

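Shares in parentheses are those of all features past the test under the same setting. The members past the test, 9 and 11 of 46 peaks and 2 and 2 of 8 loci for H3K18La and H3K27Ac, depended on how libraries were scaled. With reads in peaks as library size, 0 member peaks, loci, promoters or non-promoter sets passed in either mark, and over all features only 40 of 14562 H3K27Ac promoters did. Locus changes then turned to -0.69 for Chat, -0.15 for Gad1, -0.43 for Gad2, -0.17 for Meis2, -0.26 for Pax6 and -0.16 for Tfap2b in H3K18La, and to -0.25 for Chat, -0.24 for Gad1, -0.29 for Gad2, -0.13 for Meis2, -0.56 for Pax6 and -0.69 for Slc32a1 in H3K27Ac. Centring on the median peak left 2 and 1 peaks (5.02 and 5.11%), 1 and 1 loci (8.85 and 17.2%) and 0 H3K18La promoters (4.66%), and turned Chat to -0.46, Gad1 to -0.24, Gad2 to -0.52 and Tfap2b to -0.58 in H3K18La and Slc32a1 to -0.068 in H3K27Ac.

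At a threshold of 0.01, 3 and 0 peaks (10.9 and 0.079%), 1 and 1 loci (16.7 and 25.0%) and 1 H3K18La promoter (11.5%) passed. Plain moderation left 0 H3K27Ac peaks and loci (0% of either), and a pseudocount of 0.1 left 0 H3K27Ac peaks (0%). Thinning reads to the smallest library total of each mark, in 1 draw, which leaves the share of reads in peaks unequal, left 3 and 0 peaks (9.47 and 0%) and 0 H3K18La promoters (15.3%) but 2 H3K18La non-promoter sets (22.5%). It left 2 loci in each mark (22.3 and 38.1%), but in H3K18La Meis2 no longer passed (0.76, adjusted p = 0.082) and Pax6 did (1.65, adjusted p = 0.035). It gave Gad2 -0.31 and Slc32a1 1.59 in H3K18La and Tfap2b 0.17 in H3K27Ac. Voom on recovered reads called 2 H3K18La and 1 H3K27Ac non-promoter sets (36.1 and 25.6%) and gave Gad2 -0.095, Slc32a1 0.046 and Tfap2b -0.26 in H3K18La. For the H3K27Ac non-promoter sets, a pseudocount of 1 (9.55%) and a mean of at least 1 RPKM (44.7%) each called 1. The cause was not tested. The interaction called 0 members in every setting. The edgeR alternative was not run, since the deposited unit is RPKM.

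Leaving out 1 library gave 4 to 8 member peaks, 1 to 2 loci, 1 to 2 promoters and 1 to 2 non-promoter sets for H3K18La, and over all features 11.2 to 19.6% of peaks, 21.1 to 26.5% of loci, 15.1 to 22.5% of promoters and 21.5 to 27.02% of non-promoter sets. For H3K27Ac it gave 0 member peaks, 0 loci, 0 to 2 promoters and 0 non-promoter sets, where over all features 0% of peaks, 0 to 18.7% of loci, 0.316 to 54.0% of promoters and 0% of non-promoter sets passed. The lone library of a group was then assumed to vary like the others. Locus changes ranged from -0.16 to 0.46 for Chat, -0.25 to 0.51 for Gad2, -0.20 to 0.17 for Slc32a1 and -0.27 to 0.33 for Tfap2b in H3K18La, and from -0.20 to 0.94 for Slc32a1 and -0.28 to 0.25 for Tfap2b in H3K27Ac.

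Within a mark, the deviations of libraries of the same replicate number had correlations of 0.024, 0.017 and 0.010 for H3K18La and -0.004 for H3K27Ac. With so few reads per peak, counting error alone can hold such values near 0. Whether the numbers pair the libraries was therefore not decided. Between marks the correlations were -0.008 and -0.0075 at 5 mM and 0.134 and 0.050 at 25 mM, not all over 0.1. With the replicate block, 1 member H3K27Ac peak (7.87% of all peaks), 1 H3K18La locus (26.0% of all loci), 0 H3K27Ac loci (6.62%), 0 H3K27Ac promoters (0.810%) and 1 H3K27Ac non-promoter set (15.7%) passed.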
